A study of Drosophila melanogaster
Gallus gallus with 8 samples.

Results

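The DRIP peaks on chromosome 1 of the chicken B-cell line DT40 were examined in PrimPol-deficient (*primpol*) and wild type cells. Peaks were taken as members when the chromosome column of a deposited peak list read 1, with no selection on signal. There were 11354 such peaks among 48468 in the *primpol* list and 9353 among 41445 in the wild type list. DRIP-seq recovers DNA:RNA hybrids with the S9.6 antibody and sequences the DNA bound with them. *primpol* DT40 cells gave 2 DRIP libraries, 1 library treated with RNase H and 1 input, and wild type DT40 cells gave the same set, all of them mixed with *Drosophila* S2 cells, at 3.75 DT40 cells to 1 S2 cell by the labels. The study's methods give a different mixing ratio, which does not enter the values below. Both DRIP libraries of a genotype were joined into 1 list, so the spread between replicates is unknown and the genotypes are compared without p-values. Intervals below reflect counting error alone, as if every peak were independent of its neighbours. Whether the *primpol* cells derive from 1 clone is not given in the sources used here.

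R-loops form when a transcript anneals to its template strand behind the RNA polymerase and leaves the other DNA strand single. They are found in vertebrate genomes mainly in transcribed DNA, often near gene starts and gene ends, and are removed by RNase H enzymes and helicases. PrimPol combines primase and polymerase activities and can prime new DNA synthesis beyond an obstacle met by the replication fork. Chromosome 1 is the largest chicken chromosome, and like the other macrochromosomes it is poorer in genes per unit of length than the microchromosomes. Coordinates below are those of Galgal5, the assembly used by the authors. Gene annotation and sequence of this assembly were not used here, so positions are given without their genes.

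The lists rested on 44735404 *primpol* and 46425192 wild type DRIP tags after removal of duplicates. The matching input libraries held 30302032 tags in *primpol* and 23107894 in wild type. The height of a peak, its mean fragment pileup, is on the scale of the genotype's own input depth. Heights are therefore ranked within a list or set beside the local background (lambda, the pileup expected from input). Because inputs of different depth give a caller different power, values are also given with *primpol* brought to the wild type input depth, a step that can only remove *primpol* peaks. Wild type peaks face no added threshold, and the *primpol* peaks that are kept retain their called widths.

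The first question was how densely hybrids were called along the chromosome. With the last peak end of either list, at 196199731, taken as the end of the chromosome, *primpol* cells had 57.9 peaks per Mb and wild type cells had 47.7 peaks per Mb. The *primpol* peaks covered 15.3 Mb, or 7.81% of the chromosome, and the wild type peaks covered 11.9 Mb, or 6.06%. The number of peaks was thus 1.21 times as high in *primpol* as in wild type (95% Poisson interval 1.18 to 1.25), and the covered length was 1.29 times as high. Over the whole lists the ratios were 1.17 for number and 1.23 for covered length. They were 1.19 and 1.25 on chromosome 3, and 1.09 and 1.17 on chromosome 2. With *primpol* at the wild type input depth, the ratio of numbers on chromosome 1 was 0.728 and that of covered length was 0.986. The latter had an interval from the counting error of peak number of 0.956 to 1.02 that includes 1. The ratio of numbers thus fell below 1, and no excess in covered length was left. The step can only lower both ratios, however, and leaves the width of the kept peaks as called. Neither value shows what a call at that depth would give.

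Chromosome 1 took 23.4% of the *primpol* list (95% Wilson interval 23.1 to 23.8%) and 22.6% of the wild type list (22.2 to 23.0%). The ratio of these shares was 1.04 (95% interval 1.01 to 1.06). At the wild type input depth it was 1.02, with an interval of 0.994 to 1.05 that includes 1. With assembled chromosomes alone it was 1.04 (1.01 to 1.06). Within the 20000 peaks of each list ranked highest by −log10 q-value it was 1.05 (1.02 to 1.09). Peaks reaching 5 on that scale were few, 31 in *primpol* and 15 in wild type. They gave 1.31, with an interval of 0.720 to 2.40 that includes 1. The ratio of shares was 1.01 (0.980 to 1.05) for chromosome 3 and 0.932 (0.909 to 0.955) for chromosome 2. In density chromosome 3 was close to chromosome 1, with 55.4 *primpol* and 46.7 wild type peaks per Mb. Peaks covered 7.56% of its length in *primpol* and 6.06% in wild type. Chromosome 2 was denser, with 67.96 *primpol* and 62.4 wild type peaks per Mb. Its median lambda was 1.53 times that of chromosome 1 in *primpol* and 1.50 times in wild type, so input coverage at peaks was higher on chromosome 2 in both cell lines, and its part in the higher density was not tested.

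Peaks were unevenly spread. Over the 196 full windows of 1 Mb, the number per window was 14 to 109 in *primpol*, with a median of 54.5, and 14 to 90 in wild type, with a median of 45. The variance of the counts was 7.65 times their mean in *primpol* and 4.88 times in wild type. The densest quintile of the windows held 31.2% of the *primpol* peaks and 29.6% of the wild type peaks, whereas the sparsest quintile held 10.9% and 11.7% of them. Covered length varied more widely than number, at 1.07 to 20.5% of a window in *primpol* and 1.02 to 13.5% in wild type. Neighbouring windows resembled each other, with a Spearman correlation between adjacent windows of 0.497 in *primpol* and 0.387 in wild type, given as a description.

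**Figure D1:**
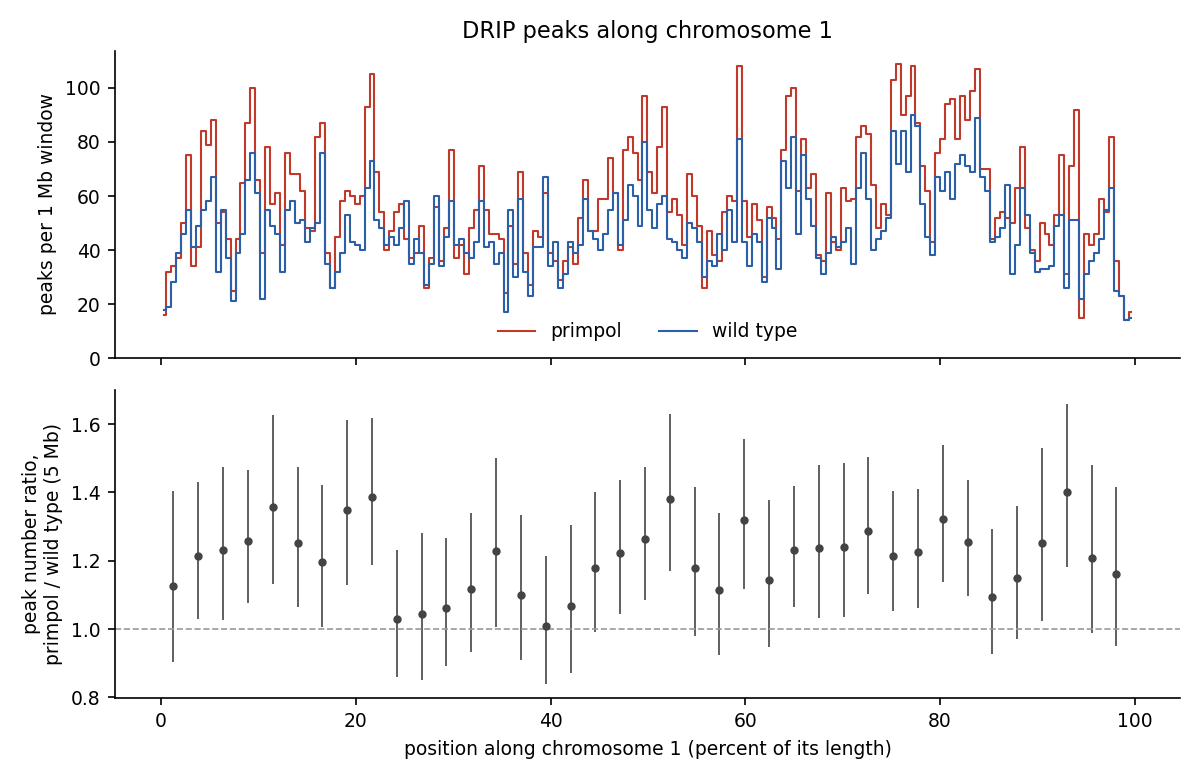
The upper plot shows the number of peaks in each full 1 Mb window along chromosome 1 in *primpol* (red) and wild type (blue), against position as a percent of chromosome length. The lower plot gives the ratio of peak number, *primpol* over wild type, in 39 full windows of 5 Mb, with bars for 95% Poisson intervals; all 39 ratios lie above 1, at 1.01 to 1.40.

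The stretch from 145 to 165 Mb was dense as a whole. Here 1699 *primpol* and 1357 wild type peaks were called, or 84.95 peaks per Mb in *primpol* and 67.85 in wild type. It was not evenly so, since the window at 155 to 156 Mb had 43 *primpol* and 38 wild type peaks, below the medians of 54.5 in *primpol* and 45 in wild type. Its last part, from 160 to 165 Mb, held the most peaks of any 5 Mb window in both cell lines, 472 in *primpol* and 376 in wild type. At the finer scale, the 3 windows with most *primpol* peaks lay at 148 to 149 Mb with 109 peaks, at 116 to 117 Mb with 108 and at 151 to 152 Mb with 108. The 3 with most wild type peaks lay at 151 to 152 Mb with 90 peaks, at 164 to 165 Mb with 89 and at 152 to 153 Mb with 86. In the window at 151 to 152 Mb, shared by these rankings, peaks covered 16.6% of the DNA in *primpol* and 13.5% in wild type.

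Several of the sparsest windows lay at the chromosome ends. The window at 194 to 195 Mb had the fewest peaks in both lists, 14 in each, and covered 1.43% in *primpol* and 1.18% in wild type. The next fewest were 15 *primpol* peaks at 185 to 186 Mb and 16 in the first Mb, and 15 wild type peaks at 195 to 196 Mb and 17 at 69 to 70 Mb. The first 5 Mb as a whole held 33.8 *primpol* and 30 wild type peaks per Mb. Both ends were thus below the chromosome-wide density in both cell lines. The lists also began at different places, with the first *primpol* peak at 54782 and the first wild type peak at 270975, while their last peaks ended at 196199731 in *primpol* and 196199719 in wild type.

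The second question was whether the excess of *primpol* peaks was even along the chromosome. All 39 full windows of 5 Mb held more *primpol* than wild type peaks, as did 163 of the 196 windows of 1 Mb, where 28 held fewer and 5 held the same number. With *primpol* at the wild type input depth, 4 of the 196 windows held more *primpol* peaks. The ratio was low over the stretch from 45 to 65 Mb, with 931 *primpol* and 875 wild type peaks and a ratio of 1.06 (95% interval 0.970 to 1.17). Directly before it, from 40 to 45 Mb, there were 381 *primpol* and 275 wild type peaks, a ratio of 1.39 (1.19 to 1.62). The lowest ratio among the 39 windows, 1.01, was found at 75 to 80 Mb with 228 *primpol* and 226 wild type peaks. The highest, 1.40, was found at 180 to 185 Mb with 322 *primpol* and 230 wild type peaks. These stretches were picked for their ratios, so the intervals describe them and are no test.

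Among the 192 windows of 1 Mb with at least 40 peaks in the lists together, the ratio had a median of 1.21 and a range of 0.759 to 1.80. The highest ratios were at 184 to 185 Mb, with 92 *primpol* and 51 wild type peaks, at 20 to 21 Mb, with 39 and 22, and at 139 to 140 Mb, with 59 and 35. The lowest were at 49 to 50 Mb, with 44 *primpol* and 58 wild type peaks, at 112 to 113 Mb, with 36 and 46, and at 61 to 62 Mb, with 31 and 39. In each of the windows with the lowest ratios the Poisson interval included 1. The covered share was also the lower in *primpol* in each of them, at 4.47% in *primpol* and 5.19% in wild type in the first.

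The excess was also set against the density of peaks. When the 1 Mb windows were ranked by the number of peaks in both lists together, the ratio was 1.13 (1.04 to 1.22) in the sparsest quintile and 1.29 (1.23 to 1.36) in the densest quintile. The densest quintile had 1.15 times the ratio of the sparsest (95% interval 1.04 to 1.26). At the wild type input depth the ratio was 0.619 in the sparsest and 0.827 in the densest quintile, and the densest quintile had 1.34 times the ratio of the sparsest (1.197 to 1.49). Windows were ranked by the counts that form the ratio, and the split was chosen after values were seen, so these intervals are no test. The gradient in number depended on the ranking, since windows ranked by wild type peaks alone gave 1.22 in both the sparsest and the densest quintile. Windows ranked by *primpol* peaks alone gave 1.05 in the sparsest and 1.31 in the densest quintile. The ratio of covered length was higher in the densest than in the sparsest quintile under all 3 rankings, at 1.38 against 1.19 for both lists together, 1.35 against 1.27 for wild type peaks and 1.40 against 1.13 for *primpol* peaks. Median lambda in the same windows was 6.31 in the densest and 6.46 in the sparsest quintile of *primpol*, and 4.16 and 4.35 in wild type, for the ranking by both lists together.

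**Figure D2:**
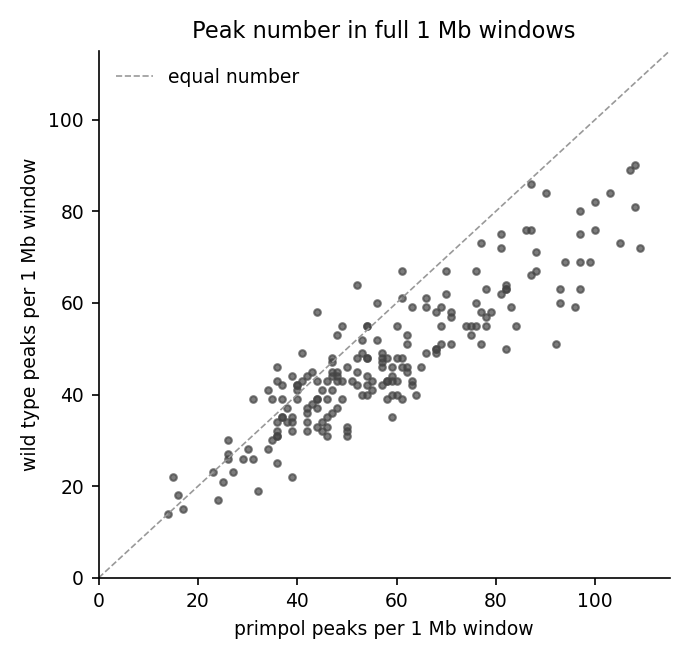
Each point is 1 of the 196 full 1 Mb windows of chromosome 1, with the number of *primpol* peaks on the horizontal axis and of wild type peaks on the vertical axis. Most points lie below the line of equal number, and the distance from it is larger among windows with many peaks, as a constant ratio would also give.

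Despite this difference in number, the profile along the chromosome was alike in both cell lines. The Spearman correlation of peak number over the 196 windows was 0.870 and the Pearson correlation was 0.890. For covered length the Spearman correlation was 0.955. In windows of 5 Mb the Spearman correlation of peak number was 0.933. These correlations are descriptions without p-values, because windows of a list share its depth. Windows with many peaks also had wider ones, with a Spearman correlation between number and median width of 0.446 in *primpol* and 0.329 in wild type. No comparable relation was seen with lambda, where the correlations were -0.048 in *primpol* and -0.109 in wild type.

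The third question concerned peak width. The authors cut the DNA with restriction enzymes, to about 1 kb on average, before hybrids were precipitated. Widths, edges and short gaps therefore need not mark the extent of hybrids, and the part of these fragments was not tested. The median was 823 bp in *primpol*, with an exact 95% interval of 805 to 840 bp, and 792 bp in wild type, with an interval of 775 to 808 bp. The interquartile range was 452 to 1694 bp in *primpol* and 425 to 1558 bp in wild type. No peak was narrower than the fragment length the caller had estimated, which was 187 bp in *primpol* and 183 bp in wild type. Peaks of 1 kb or more made up 42.4% of the *primpol* and 40.2% of the wild type peaks of chromosome 1, compared with 42.5% and 40.4% over the whole lists. Peaks of 5 kb or more numbered 361 in *primpol*, or 3.18% against 3.12% over the whole list, and 271 in wild type, or 2.90% against 2.78%. Chromosome 1 minus the rest of the list differed by -0.143 percentage points in *primpol* (95% Newcombe interval -1.18 to 0.898) and by -0.265 points in wild type (-1.39 to 0.868) for peaks of 1 kb or more, and the corresponding differences for peaks of 5 kb or more were 0.0836 points in *primpol* (-0.273 to 0.463) and 0.146 points in wild type (-0.224 to 0.545). All of these intervals include 0, so no difference in width class from the rest was detectable. Chromosome 2, where lambda was higher, had wider peaks. The share of 1 kb or more on chromosome 1 minus that on chromosome 2 was -5.98 points in *primpol* (-7.31 to -4.65) and -4.76 points in wild type (-6.17 to -3.34). The part of lambda in this difference was not tested.

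Broad peaks carried most of the covered DNA. Peaks of 1 kb or more held 77.6% of the covered length in *primpol* and 75.7% in wild type, and those of 5 kb or more held 15.4% in *primpol* and 14.8% in wild type. Peaks under 300 bp were 12.5% of the *primpol* and 14.2% of the wild type peaks but held 2.21% and 2.62% of the covered length. The widest peak of the chromosome was at the same place in both lists. It spanned 83144352 to 83164411 in *primpol*, or 20060 bp, and 83144374 to 83159693 in wild type, or 15320 bp, with the rest of the *primpol* interval holding another pair of wild type peaks that ended at 83164446. Its fold enrichment over input was 4.20 in *primpol*, with a −log10 q-value of 6.82, and 4.47 in wild type, with 4.64. Lambda there was 0.776 times the chromosome's median in *primpol* and 0.611 times in wild type.

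Another of the widest peaks was common to both cell lines and similar in extent, at 157936997 to 157949975 in *primpol* (12979 bp) and 157936963 to 157949972 in wild type (13010 bp). The other *primpol* peaks among the 5 widest were at 100539256 to 100551456 (12201 bp), 114817495 to 114829435 (11941 bp) and 116529218 to 116540151 (10934 bp). The first and the middle one were each called as a pair of peaks in wild type, and the last had a single wild type partner of 10513 bp. The other wild type peaks among the 5 widest were at 180665434 to 180678443 (13010 bp), 148922008 to 148934491 (12484 bp) and 165390934 to 165401584 (10651 bp). In *primpol* the first was called as 3 peaks and each of the others as 2. In each region that the other list divided, the summed width of the parts was lower than that of the single peak.

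**Figure D3:**
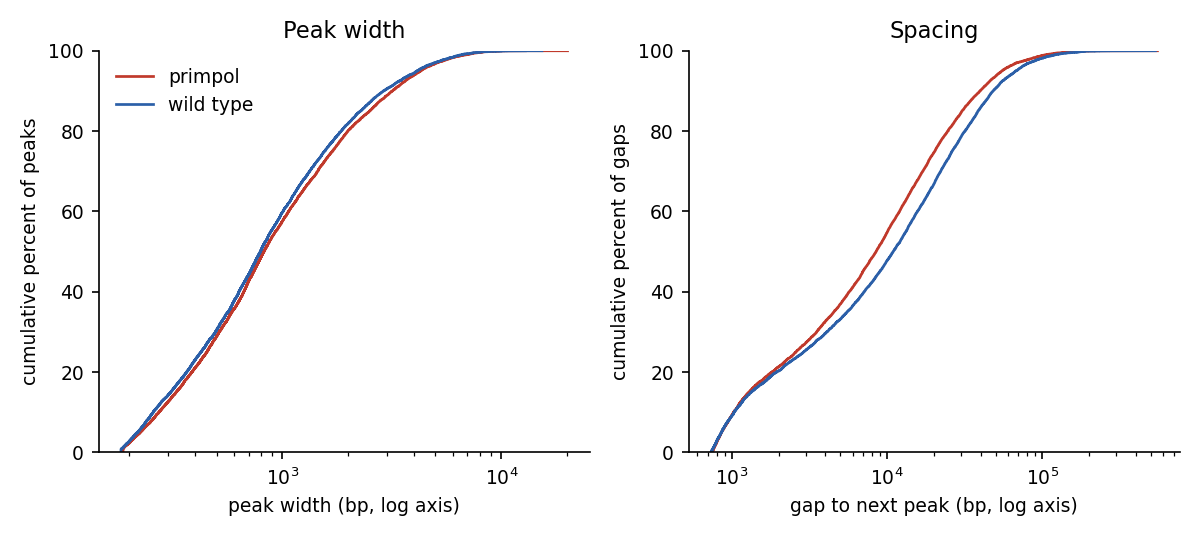
Cumulative distributions of peak width (left) and of the gap from the end of a peak to the start of the next (right) on chromosome 1, in *primpol* (red) and wild type (blue), on log axes in bp. The width curves run close together, with medians of 823 and 792 bp, and the gap curves separate beyond the shortest gaps, with medians of 8489 and 10941 bp.

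The fourth question was how peaks are spaced. The median gap between neighbouring peaks was 8489 bp in *primpol*, with an exact 95% interval of 8204 to 8764 bp, and 10941 bp in wild type, with an interval of 10537 to 11414 bp. Over the whole lists it was 9265 bp in *primpol* and 11395 bp in wild type, and on chromosome 3 it was 8830 and 11161 bp. The interquartile range on chromosome 1 was 2589 to 20294 bp in *primpol* and 2900 to 26209 bp in wild type. At the wild type input depth the median *primpol* gap was 14625 bp, which is longer than in wild type. The coefficient of variation of the gaps was 1.39 in *primpol* and 1.32 in wild type, so gaps varied by more than their mean in both. The shortest gap was 749 bp in *primpol* and 733 bp in wild type, 1 bp above 4 fragment lengths (748 bp in *primpol* and 732 bp in wild type), the distance up to which the caller joins regions into a broad peak.

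Short gaps were about equally common in both lists. Gaps under 1 kb made up 9.22% of *primpol* gaps and 9.02% of wild type gaps, beside 8.91% and 8.77% over the whole lists. The lists diverged at intermediate distances, as gaps of 1 to 5 kb were 27.7% of the total in *primpol* and 24.2% in wild type, and those of 5 to 10 kb were 17.8% in *primpol* and 14.5% in wild type. Peaks less than 1 kb from a neighbour formed 979 runs with 2026 peaks in *primpol*, or 17.8% of its peaks, and 779 runs with 1623 peaks in wild type, or 17.4%. No run had more than 4 peaks. Runs of that length numbered 5 in *primpol* and 3 in wild type. For gaps of 1 to 10 kb and for runs, values over the whole lists are not given here.

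Stretches of at least 100 kb without a peak numbered 135 among 11353 gaps in *primpol* and 179 among 9352 in wild type. They took up 9.50% and 12.6% of the chromosome. Over the whole lists they numbered 1255 among 47643 gaps in *primpol* and 1449 among 40737 in wild type. They took up 9.89% and 12.7% of chromosome 3, and 4.18% and 5.49% of chromosome 2. The longest on chromosome 1 was the same in both cell lines, at 74612306 to 75162729 in *primpol* (550 kb) and at 74612296 to 75146851 in wild type (535 kb). The *primpol* stretch contained 2 wild type peaks with a median width of 217 bp near its end, and the wild type stretch contained no *primpol* peak. The next longest were at 14085013 to 14333914 (249 kb) and 182792682 to 183030579 (238 kb) in *primpol*, and at 73481201 to 73776791 (296 kb) and 52909388 to 53187884 (278 kb) in wild type. The wild type stretch from 73481201 contained 7 *primpol* peaks with a median width of 492 bp, whereas the *primpol* stretch from 182792682 contained no wild type peak. Of all stretches of at least 100 kb, 45 of 135 in *primpol* contained no wild type peak and 34 of 179 in wild type contained no *primpol* peak. The median number of peaks of the other list was 1 in a *primpol* stretch and 2 in a wild type stretch, so most of them were broken by peaks called in the other cell line.

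The last questions concerned the overlap of the lists and the signal within peaks. On chromosome 1, 6351 *primpol* peaks (55.9%, 95% Wilson interval 55.0 to 56.8%) overlapped a wild type peak by at least 1 bp. Over the whole *primpol* list the share was 57.8%. In the other direction 6673 wild type peaks (71.3%, 70.4 to 72.3%) overlapped a *primpol* peak, and over the whole wild type list 69.7% did. Relative to the rest of its list, the share on chromosome 1 was lower by 2.40 percentage points in *primpol* (difference -2.40, 95% Newcombe interval -3.44 to -1.36) and higher by 2.15 points in wild type (1.09 to 3.18). Against chromosome 3 the *primpol* share differed by -0.933 points (-2.47 to 0.606) and the wild type share by 2.05 points (0.502 to 3.61). Against chromosome 2, where lambda was higher, both were lower, with differences of -10.1 points in *primpol* (-11.4 to -8.76) and -2.91 points in wild type (-4.19 to -1.64). The part of lambda in these differences was not tested.

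Counted in bases, the overlap amounted to 8.40 Mb. This was 54.8% of the covered length in *primpol* and 70.6% in wild type. The union of both lists covered 18.8 Mb, or 9.59% of the chromosome, and 44.6% of it was covered in both. At the wild type input depth 69.0% of the remaining *primpol* peaks and 54.6% of the wild type peaks had a partner. The order of the shares thus changed when *primpol* peaks alone were removed.

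Wide peaks were shared far more often than narrow ones. In the narrowest quintile, up to 386 bp in *primpol* and 365 bp in wild type, 28.9% of *primpol* and 47.8% of wild type peaks had a partner. In the widest quintile, from 1990 bp in *primpol* and 1858 bp in wild type, 94.9% and 98.1% did. Of peaks of 5 kb or more, 360 of 361 in *primpol* and all 271 in wild type overlapped the other list. Shares by width are not given here for the whole lists, so this is not set apart as a trait of chromosome 1. A wider peak has more bases that can be overlapped, and the part of width in the gradient was not tested. Height showed a similar gradient, with 27.8% of *primpol* and 52.8% of wild type peaks shared in the lowest quintile and 84.6% and 85.2% in the highest. The shares in the lists were thus close at the upper end of height and apart at the lower end. By fold enrichment they were apart at both ends, with 42.2% in *primpol* and 57.3% in wild type in the lowest quintile and 71.4% and 84.6% in the highest. By −log10 q-value they were 30.6% in *primpol* and 49.4% in wild type in the lowest quintile and 81.2% and 88.7% in the highest.

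**Figure D4:**
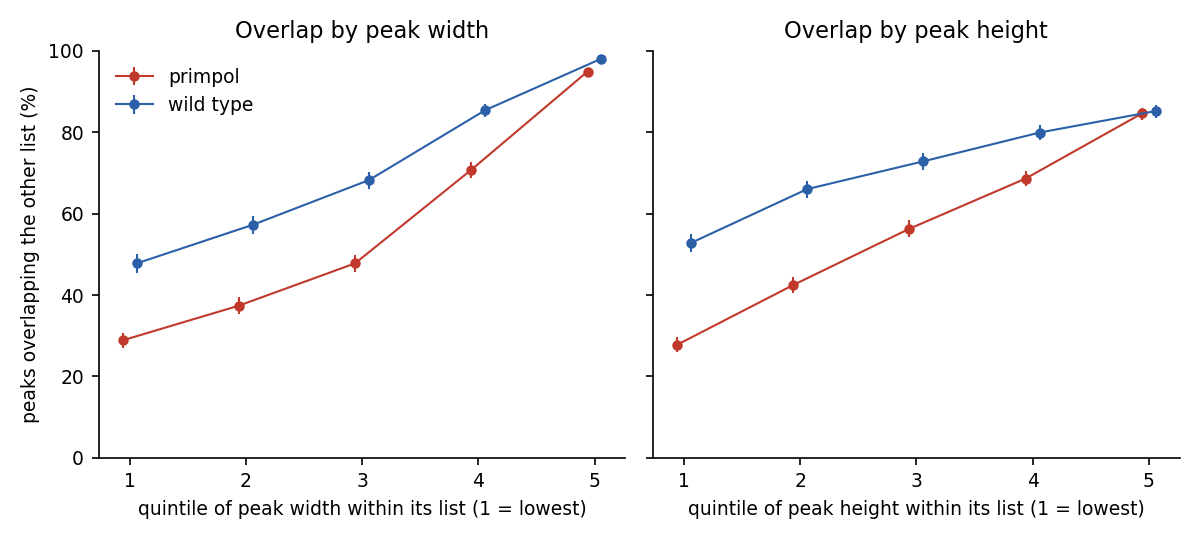
Share of chromosome 1 peaks that overlap the other list by at least 1 bp, by quintiles of peak width (left) and peak height (right) within the own list, in *primpol* (red) and wild type (blue), with 95% Wilson intervals as bars. The share is higher with each quintile in both lists, from 28.9 to 94.9% in *primpol* and 47.8 to 98.1% in wild type for width.

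Sharing also varied along the chromosome. Among the full 5 Mb windows the wild type share was between 60% in the first window and 82.2% at 160 to 165 Mb, where peaks were densest. In *primpol* it was between 48.7 and 64.0%. In windows of 1 Mb it was between 26.1 and 80% in *primpol* and between 36.7 and 89.7% in wild type. By quintiles of 1 Mb windows ranked by peak number in both lists, the *primpol* share was 50.2% in the sparsest and 57.8% in the densest quintile. The wild type share was 58.9% in the sparsest and 79.6% in the densest quintile. A denser opposite list offers more bases to overlap, and this part was not tested.

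Peaks without a partner were narrow and near the calling threshold. The 5003 such *primpol* peaks had a median width of 542 bp, against 1366 bp for the shared *primpol* peaks, and held 22.1% of the covered length. The 2680 such wild type peaks had a median width of 478 bp, against 1045 bp for the shared ones, and held 13.0%. Their median −log10 q-value was 1.40 in *primpol* and 1.34 in wild type, where shared peaks had 1.72 and 1.57. Most peaks without a partner lay 1 kb or more from any peak of the other list, and no expected distance was computed. The median distance to the nearest one was 5617 bp in *primpol* and 3781 bp in wild type, and 16.9% of *primpol* and 24.9% of wild type peaks without a partner lay within 1 kb of one. A distance of more than 100 kb was found for 11 *primpol* peaks and for no wild type peak.

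The widest peak without a partner was a *primpol* peak at 11081593 to 11086862, with a width of 5270 bp, a fold enrichment of 2.38 and a −log10 q-value of 1.89. It was followed in *primpol* by peaks at 96251782 to 96255859 (4078 bp) and 134651624 to 134655435 (3812 bp). The widest in wild type were at 128363564 to 128366303 (2740 bp), 17236696 to 17239339 (2644 bp) and 108682540 to 108685047 (2508 bp). The highest peaks without a partner were short in both lists. In *primpol* they were at 21014707 to 21015324 with a height of 26.1, at 180087507 to 180087697 with 25.5 and at 110005280 to 110005538 with 24.2. Lambda at the first of these was 2.12 times and at the next 1.93 times the chromosome's median, so the high pileup stood beside a high input, and their fold enrichments of 1.82 and 1.94 ranked 11354 and 11344 of 11354. In wild type the highest were at 44151529 to 44151919 with a height of 22.7, at 91574820 to 91575074 with 21.1 and at 88714423 to 88714609 with 20.9.

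Some regions were divided differently in the cell lines. A total of 630 *primpol* peaks overlapped at least 2 wild type peaks each, 1305 in sum, and had a median width of 3462 bp. The reverse was found for 342 wild type peaks, which overlapped 695 *primpol* peaks and had a median width of 3089 bp. The matching shares over the whole lists are not given here. The most wild type peaks under 1 *primpol* peak were 4, as at 19342568 to 19352130 (9563 bp), at 19382399 to 19387757 (5359 bp) and at 191160771 to 191170382 (9612 bp). The first and the next of these are close neighbours. The most *primpol* peaks under 1 wild type peak were 3, as at 15750695 to 15754867 (4173 bp), 52766204 to 52769809 (3606 bp) and 70141466 to 70146561 (5096 bp).

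The edges of peaks were compared over the 5076 pairs in which each peak overlapped only the other. These made up 44.7% of *primpol* and 54.3% of wild type peaks. Over the whole lists there were 22549 such pairs among 48468 *primpol* and 41445 wild type peaks. The *primpol* peak was the wider in 61.0% of pairs (95% Wilson interval 59.7 to 62.4%), beside 60% of pairs over the whole lists, and the difference between chromosome 1 and the rest was 1.29 percentage points (95% Newcombe interval -0.243 to 2.81). The median ratio of width, *primpol* over wild type, was 1.08, with an interquartile range of 0.824 to 1.68. The *primpol* peak reached further out by a median of 41 bp at the left edge and 38 bp at the right edge. It extended beyond the wild type peak at both edges in 32.6% of pairs and lay within it at both edges in 15.5%. On chromosome 1 the interquartile range was -132 to 307 bp at the left edge and -111 to 301 bp at the right edge. The extension was thus similar on both sides and small against the spread between pairs.

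**Figure D5:**
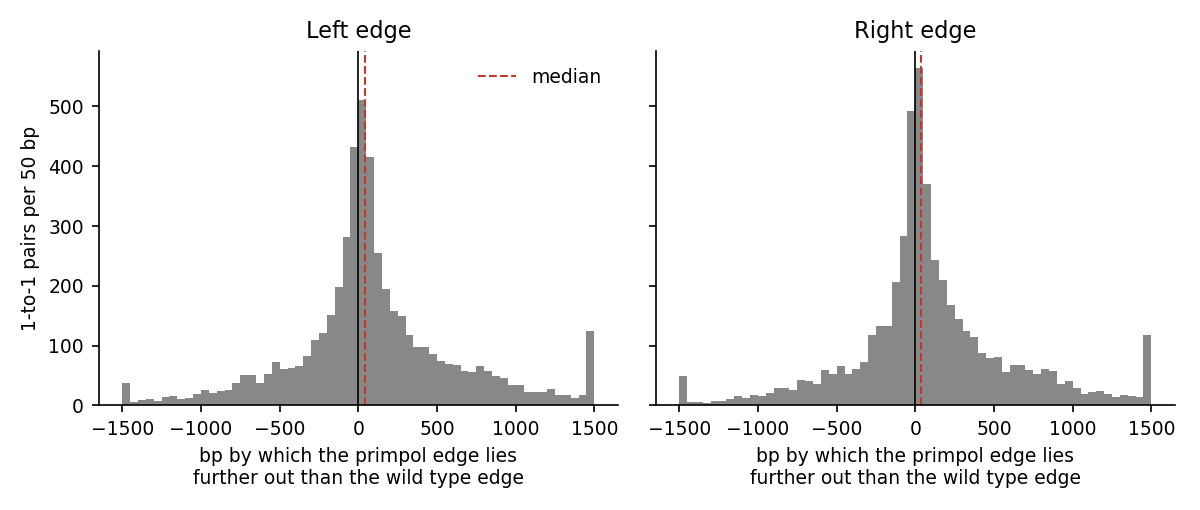
Distance in bp by which the *primpol* edge lies further out than the wild type edge, for the left and right edges of 5076 one-to-one pairs on chromosome 1, in bins of 50 bp. Positive values mean that *primpol* extends further, values beyond the axis are placed in the end bins, and the dashed medians are at 41 and 38 bp.

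Few edges coincided. The left edges lay within 10 bp of each other in 4.53% of pairs and the right edges in 4.87%, beside 5.55% and 5.24% over the whole lists. Both did so in 11 pairs, or 0.217%, beside 0.528% over the whole lists. Restriction sites were not located, so their part in the edges was not tested. In 58.96% of pairs the overlap spanned 50% or more of each peak, beside 60.5% over the whole lists. When the pairs were ranked by the mean of both widths on the log scale, the share with the wider *primpol* peak was 55.9% in the narrowest quintile and 67.5% in the widest quintile, while the median ratio was 1.11 in the narrowest quintile and 1.04 in the widest. The direction of this gradient depended on the ranking, since pairs ranked by wild type width alone gave 86.0% in the narrowest and 56.3% in the widest quintile. Both rankings use widths that form the comparison, so neither gradient is a test. A pair ranked low by its wild type width is more likely to have the wider *primpol* peak by construction.

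Few peaks of chromosome 1, 1.03% in *primpol* and 1.54% in wild type, were among the highest 10% of their list by height. The share on chromosome 3 was 0.989% in *primpol* and 1.58% in wild type, whereas on chromosome 2, where lambda was higher, it was 39.3% in *primpol* and 32.7% in wild type. By fold enrichment, which divides by local background, 8.69% of chromosome 1 peaks in *primpol* and 9.46% in wild type were among the highest 10%. Over the other assembled chromosomes, leaving out unplaced sequences, 7.90% in *primpol* and 7.86% in wild type were, so chromosome 1 lay below the whole lists but above the other chromosomes on this scale. The median height was 16.8 in *primpol* and 13.1 in wild type, and the median lambda was 6.55 in *primpol* and 4.38 in wild type. There were 31 *primpol* peaks with a −log10 q-value of 5 or more, or 0.273% against 1.1% over the whole list, and 15 such wild type peaks, or 0.160% against 0.82%. Most such peaks outside chromosome 1, 403 of 504 in *primpol* and 246 of 325 in wild type, lay on sequences not assigned to an assembled chromosome. Over the other assembled chromosomes the share was 0.281% in *primpol* and 0.253% in wild type. Chromosome 1 minus those chromosomes was -0.00749 percentage points in *primpol* (95% Newcombe interval -0.108 to 0.117) and -0.093 points in wild type (-0.182 to 0.0225), so no difference from them was detectable. The share was 0.463% in *primpol* and 0.333% in wild type on chromosome 2, and 0.0973% in *primpol* and 0.115% in wild type on chromosome 3. Chromosome 1 minus chromosome 3 was 0.176 points in *primpol* (0.0354 to 0.302) and 0.0449 points in wild type (-0.105 to 0.166). Of these peaks on chromosome 1, 29 of 31 in *primpol* and all 15 in wild type overlapped some peak of the other list. The share of such peaks with a partner is not given here for the whole lists.

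The highest *primpol* peak was at 152856549 to 152858320, with a height of 46.5, a fold enrichment of 5.05 and a −log10 q-value of 16.5, the highest of chromosome 1. Its wild type partner at 152855307 to 152857983 had a fold enrichment of 4.04 and a −log10 q-value of 6.15, and ranked 10 by height in its list. The next, at 192611381 to 192613187, had a height of 42.6 and a fold enrichment of 4.62, and its wild type partner ranked 36 by height. The third, at 17710045 to 17712464, had a height of 40.1 and a fold enrichment of 4.95. Its wild type partner, at 17710078 to 17712436, had the highest fold enrichment and the highest −log10 q-value among wild type peaks of the chromosome, 7.03 and 11.7. This position was among the 7 highest in each list by height, fold enrichment and −log10 q-value.

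The remaining highest *primpol* peaks were neighbours, at 21025237 to 21028374 with a height of 38.7 and at 21018888 to 21023071 with a height of 36.9. Lambda there was 2.88 and 2.93 times the chromosome's median, and their fold enrichments, 2.00 and 1.88, ranked 11299 and 11353. The wild type partner of the first, at 21025230 to 21028531, ranked 3 by height with 26.7, and its lambda was 2.45 times the median. In both cell lines the high pileup of this region thus stood beside a high input. The peak at 21014707, the highest *primpol* peak without a partner, lies beside them.

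The highest wild type peaks were at 106242674 to 106243022 with a height of 29.3 and a fold enrichment of 2.86, and at 77286867 to 77287738 with a height of 29.3 and a fold enrichment of 3.90. Lambda was 2.19 times the chromosome's median at the first, whose fold enrichment ranked 1711, and 1.54 times at the other, whose fold enrichment ranked 35. Their *primpol* partners ranked 204 and 931 by height in *primpol*, with fold enrichments of 2.59 and 2.60. The *primpol* partner of the peak at 77286867 was 3674 bp wide, against 872 bp in wild type, and its height is a mean over this wider interval. The others were the peak at 21025230 and those at 76929482 to 76929966, with a height of 25.9, a lambda of 1.959 times the median and a fold enrichment that ranked 2103, and 49870022 to 49873301, with a height of 25.6 and a fold enrichment of 4.59. The *primpol* partners of the last 2 ranked 12 and 10. All 5 highest peaks of each list had a partner in the other.

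Over the one-to-one pairs of chromosome 1, peak width was ordered more alike in the cell lines than signal was. The Spearman correlation across pairs was 0.626 for width, 0.538 for height, 0.414 for the −log10 q-value and 0.387 for fold enrichment. Peaks are not replicates, so these are descriptions. Within pairs the *primpol* height was a median of 1.32 times the wild type height, lambda was 1.53 times and fold enrichment was 0.900 times. The *primpol* input held 1.31 times the tags of the wild type input, and whether *primpol* was the higher depended on which of these scales was read. Over the genome, the study reported higher *primpol* peaks after normalising to *Drosophila* reads, a scale that was not read here.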

How the data were processed

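DRIP-seq libraries of *primpol* and wild type DT40 cells were made by the authors, who digested the DNA with restriction enzymes, immunoprecipitated hybrids with S9.6 and sheared the eluate to 300 bp on average. Reads were trimmed (Trim Galore 0.4.4), aligned to Galgal5 and *Drosophila* with Bowtie2 and kept where unique. The authors then ran MACS2 2.1.1.20160309 in broad mode, with the input of each genotype as control, at q-values of 0.05 (strong) and 0.1 (weak). How replicates were merged is not given in the sources used here. Spike-in reads and libraries treated with RNase H were not analysed here.

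The deposited signal is the pileup averaged over the peak (height), scaled to the smaller of DRIP and input data. Fold enrichment as deposited is a ratio, height plus 1 over lambda plus 1, from which lambda was computed. The deposited −log10 p-values and −log10 q-values are the caller's.

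Overlap was counted from 1 bp, with the same counts from bedtools 2.31.1. Gaps ran from a peak's end to the next start, and peaks were assigned to windows by midpoint. Shares have 95% Wilson intervals, differences of shares Newcombe intervals and medians exact binomial intervals. For the depth alternative, *primpol* heights and lambdas were multiplied by 0.763, their −log10 p-values were lowered by the matching Poisson term, and peaks reaching the lowest wild type value, 2.65, were kept. Functions were tested on simulated data. Python 3.11.15, numpy 2.4.6, pandas 2.3.3, scipy 1.17.1 and matplotlib 3.10.9 were used.

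Named positions are, per list, the 5 highest and 5 widest peaks, the 3 widest and 3 highest without a partner, the 3 overlapping most peaks of the other list, the 3 windows of 1 Mb with most and fewest peaks and with the highest and lowest ratio, and the 3 longest gaps. The stretches of several Mb, and the split by density, were chosen after values were seen. Members and rules were chosen with earlier results of these data known.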

Additional observations from a re-analysis of the deposited data

How the results depend on the processing

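Bringing *primpol* to the wild type input depth, which only removes *primpol* peaks, reversed the ratio of peak number, *primpol* over wild type, to 0.728, took that of covered length to 0.986 (interval 0.956 to 1.02, which includes 1), reversed the difference between the shares with a partner, *primpol* minus wild type, from -15.4 to 14.4 points, and the ratio of peak number to 0.619 in the sparsest and 0.827 in the densest quintile of windows, the last pair being chosen after the data were seen. It moved the shares with a partner to 69.0% in *primpol* and 54.6% in wild type, the median *primpol* width to 1154 bp and the median *primpol* gap to 14625 bp. The *primpol* peaks that were kept retained their called widths, and wild type peaks faced no added threshold. A −log10 q-value of at least 5 kept 31 *primpol* and 15 wild type peaks and by construction left little to compare, with ratios of 2.07 for number, 4.13 for covered length and 1.31 for the share of the list, median widths of 1242 bp in *primpol* and 882 bp in wild type, shares with a partner of 29.0% in *primpol* and 60% in wild type (difference -31.0 points), and a wider *primpol* peak in 55.6% of 9 pairs. Keeping the top 20000 of each list by −log10 q-value gave median widths of 1342 bp in *primpol* and 1160 bp in wild type and shares with a partner of 52.8% in *primpol* and 57.3% in wild type (difference -4.48 points). Overlap of at least 50% of both peaks gave a partner to 28.8% of *primpol* and 34.9% of wild type peaks (difference -6.16 points), and counting a partner within 1 kb gave 63.4% in *primpol* and 78.5% in wild type. After peaks within 1 kb were merged, the median width was 919 bp in *primpol* and 860 bp in wild type and the median gap was 9957 bp in *primpol* and 12967 bp in wild type. The median distance between midpoints was 9955 bp in *primpol* and 12277 bp in wild type. The correlation of windows was 0.933 at 5 Mb and 0.955 for covered length. That of one-to-one pairs was 0.387 for fold enrichment, 0.626 for width, 0.414 for the −log10 q-value and 0.614 with overlap of at least 50% of both. Where no construction is named, the cause was not tested. Another 12 of these comparisons stayed within the tolerance of the value reported, and 9 of the 10 highest peaks changed rank by fold enrichment. No paired analysis was possible because both replicates of a genotype sit in 1 list, which also leaves no replicate to omit. Alternatives for genes, sequence and motifs were not run.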
